A study of Mus musculus with 18 samples.

Results

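Reactive astrocyte genes are the genes that astrocytes, the star-shaped support cells of the brain, switch on or raise after injury, infection or inflammation. The set described here holds 36 such genes, out of 22078 gene identifiers in each of the 2 deposited count tables. Members were matched by Entrez identifier to mouse gene symbols, and 36 of 36 were present in both tables, with Chi3l1 found under its reference symbol Chil1. No measured value of these libraries enters the rule that chose them, but the list was chosen with earlier results of these data known. Its members fall by role into intermediate filaments, STAT3 signalling, a pan-reactive set, sets named A1 and A2, calcium-binding and galectin proteins, and secreted or adhesion molecules, and a few belong to more than 1 of these.

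In the brain, reactive astrocytes enlarge, rebuild their cytoskeleton from intermediate filaments such as GFAP, vimentin, nestin and synemin, and secrete acute-phase proteins, protease inhibitors and adhesion molecules. Cytokines of the interleukin-6 family drive much of this through the kinase JAK and the transcription factor STAT3, which induces its own inhibitor SOCS3, while interleukin-1, TNF and bacterial products act through NF-kB. The names A1 and A2 come from genes raised in mouse astrocytes after systemic endotoxin and after stroke, and pan-reactive genes were raised after both.

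The libraries came from mouse cortical astrocytes grown in medium with fetal bovine serum and transfected with a plasmid. The plasmid carried a DREADD, a muscarinic receptor engineered to answer a synthetic ligand, or a fluorescent protein as a control. The 4 groups at 90 min carried hM4Di (coupled to Gi, which lowers cAMP), hM3Dq (coupled to Gq, which raises calcium), rM3Ds (coupled to Gs, which raises cAMP) or EGFP, and the 2 groups at 3 days carried hM3Dq or mCherry. Every group, controls included, received 8 µM deschloroclozapine (DCZ) for 90 min, 7 days after transfection. The 3-day cultures were then given medium without DCZ, and their RNA was taken 3 days later. Each group had 3 libraries of poly-A RNA. All receptor groups had DCZ, so carrying a receptor and stimulating it cannot be told apart. The labels give neither the promoter of the plasmid nor the share of cells transfected, and they do not say that the replicates were separate cultures, so p-values measure the spread between these libraries, which may be technical.

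Library totals were 16067367 to 25222365 counts at 90 min and 16580509 to 19691525 counts at 3 days. Levels below are in CPM, a gene's count scaled to a common library total, with TMM scaling of the totals. They are not divided by gene length, so levels are compared between libraries and never between genes. A count of 3 in a library, taken as the floor, corresponded to 0.119 to 0.187 CPM and covers counting error only. Along the first principal component of the 90-min libraries (52.5% of the variance), EGFP 1, rM3Ds 2 and rM3Ds 3 scored -65.48, -53.34 and -54.85, hM4Di 1 scored -8.63, and the other libraries scored 17.47 to 25.53. At 3 days mCherry 3 scored 49.02 and the others -13.54 to -4.46 (56.7% of the variance). The summed level of 14 cell cycle genes followed the first split within EGFP (668, 142 and 129.7 CPM) and rM3Ds (133, 423 and 424 CPM). It did not within hM4Di (238, 271 and 151 CPM), where hM4Di 2 was highest. With hM3Dq it was 177, 135 and 158 CPM. Summed levels of 12 astrocyte markers were 687 to 1137 CPM at 90 min and 764 to 889 CPM at 3 days. Of the astrocyte markers, Gjb6 was below 1 CPM in every library. Single astrocyte markers split in both directions under this sum. In rM3Ds 1 to 3 S100b was 3.24, 94.3 and 86.9 CPM, and Slc1a2 was 74.05, 27.8 and 39.8 CPM. Markers of vessel-wall (mural) cells (6 genes) summed to 1248 CPM in EGFP 1 and 1183 and 1102 CPM in rM3Ds 2 and 3. The mural sum was 529 to 959 CPM in the other libraries at 90 min and 565 to 667 CPM at 3 days. Acta2, Tagln and Pdgfrb made up nearly all of it, while Rgs5 and Kcnj8 were below 1 CPM in every library. Cspg4 went the other way, at 2.08, 6.51 and 4.83 CPM in EGFP 1 to 3 and 5.12, 2.655 and 3.11 CPM in rM3Ds 1 to 3. Markers of fibroblasts and meninges (6 genes) summed to 947 to 2633 CPM at 90 min and 1859 to 2541 CPM at 3 days. Col1a1 (650.2 to 1911 CPM at 90 min), Col1a2 (94.2 to 626 CPM) and Dcn (107 to 475 CPM) made up nearly all of this sum, while Col3a1 (0.345 to 2.64 CPM), Lum (0.0790 to 3.30 CPM) and Pdgfra (1.98 to 7.27 CPM) were low at 90 min, and which cells the RNA came from was not tested. Of 11 microglial markers, 10 were below 1 CPM in every library of all groups but EGFP, where 9 were. The marker above 1 CPM in every library was Tmem119, at 1.45 to 8.97 CPM at 90 min and 4.34 to 9.20 CPM at 3 days.

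The libraries that stand apart also differed in the reactive genes themselves. In EGFP 1, 9 of 35 members were at least 1 log2 unit above the mean of EGFP 2 and 3, on the log2(CPM + 0.5) scale, and 8 were at least 1 unit below it, against 6.74% and 3.67% of all genes. The 9 were Gfap, Nes, Synm, B3gnt5, Srgn, Emp1, S100a6, Cd109 and Lgals1. The 8 were Steap4, S1pr3, Serpina3n, Lcn2, Chi3l1, Vcam1, Cp and Ptx3. rM3Ds 2 and 3 set against rM3Ds 1 had 5 members higher (B3gnt5, Nes, Gfap, S100a10 and Synm) and 5 lower (S1pr3, Steap4, Serpina3n, Vcam1 and Cp), against 5.57% and 2.55% of all genes. Gfap, Nes, Synm and B3gnt5 were thus on the high side, and Steap4, S1pr3, Serpina3n, Vcam1 and Cp on the low side, in both groups. hM4Di 1 had 3 members higher than hM4Di 2 and 3 (Gfap, Icam1 and B3gnt5) and 6 lower (Fbln5, Lcn2, S1pr3, Serpina3n, Steap4 and Chi3l1), against 2.53% and 1.15% of all genes. In mCherry 3 no member was a unit higher and 1, S100a6, was a unit lower, against 0.351% and 3.15% of all genes. These splits lie within groups of the same plasmid and treatment, and the part they play in the comparisons below is given by values with and without the libraries.

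**Figure D1:**
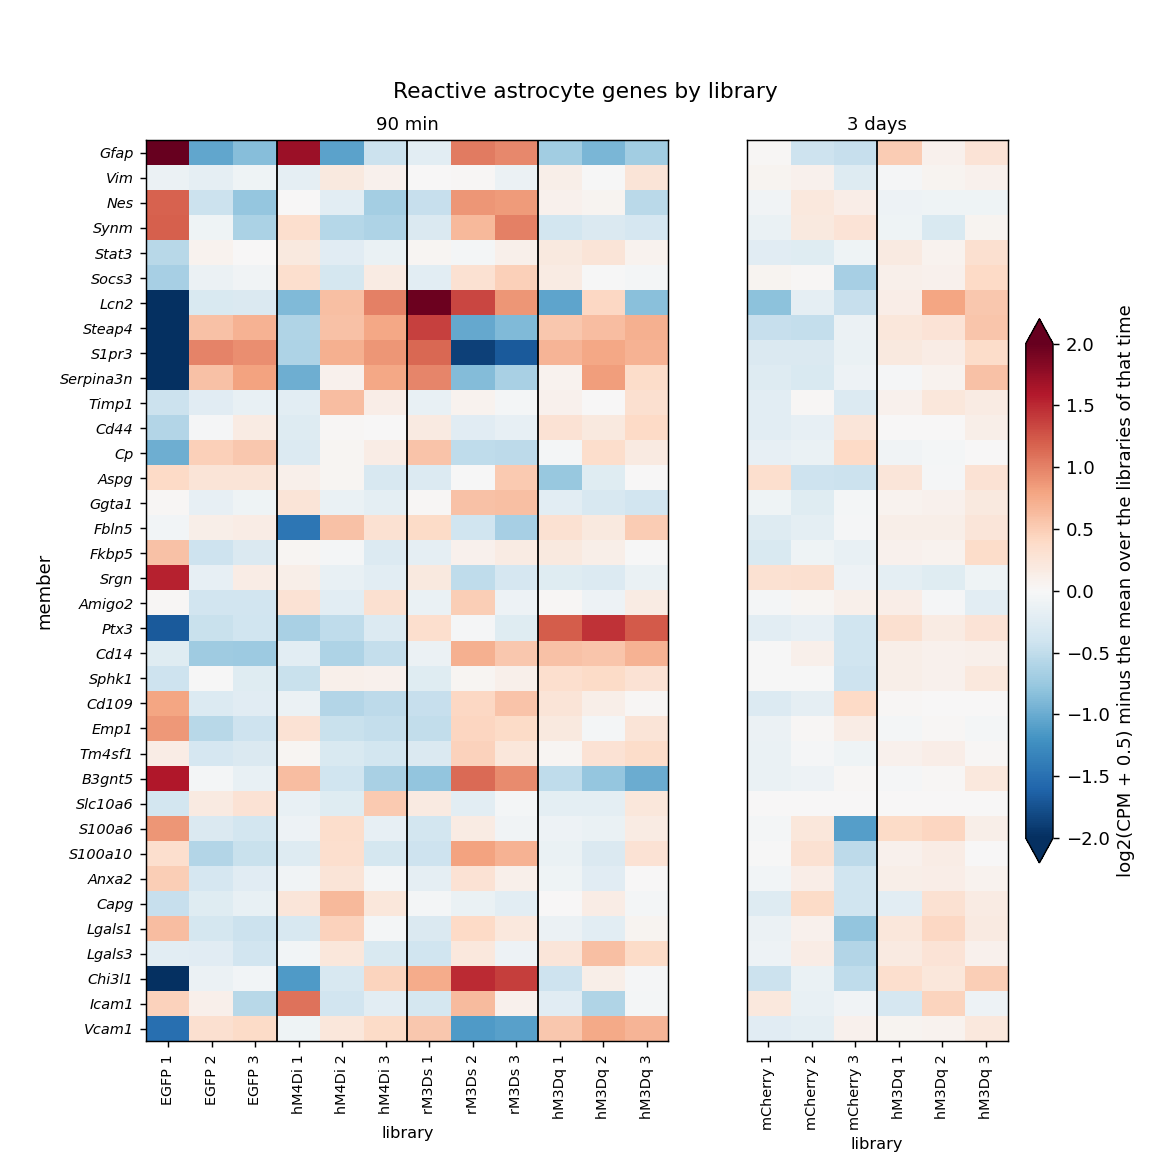
Level of the 36 members in each of 18 libraries, as log2(CPM + 0.5) minus the gene's mean over the libraries of that time (red higher, blue lower), with members ordered by role from intermediate filaments at the top to secreted and adhesion molecules at the bottom. EGFP 1 stands out within its own group in both colours, and rM3Ds 2 and 3 differ from rM3Ds 1 in many of the same rows, while the Ptx3 row is darkest in the 3 hM3Dq libraries at 90 min.

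Gfap, the filament protein by which reactive astrocytes are most often recognised, shows the split most plainly. Its level was 23.1, 2.00 and 2.36 CPM in EGFP 1 to 3, 16.4, 1.94 and 3.31 CPM in hM4Di 1 to 3, 3.93, 10.1 and 9.51 CPM in rM3Ds 1 to 3 and 2.66, 2.23 and 2.69 CPM in hM3Dq 1 to 3. One library of EGFP and one of hM4Di were several times above their own replicates, and the hM3Dq libraries were all at the low end. Nes, which encodes nestin, an intermediate filament of progenitors that reactive astrocytes re-express, was 779, 256 and 202 CPM with EGFP and 251, 634 and 622 CPM with rM3Ds. S1pr3, a receptor for the lipid sphingosine-1-phosphate, went the other way, with 9.49, 126 and 121 CPM in the EGFP libraries, 141, 17.0 and 19.4 CPM with rM3Ds and 41.1, 104 and 117 CPM with hM4Di. Only the hM3Dq group at 90 min was tight for S1pr3, at 102, 108 and 103 CPM. A lower level of a gene in bulk RNA can come from fewer cells of a type or from less RNA per cell, and these cannot be told apart here.

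**Figure D2:**
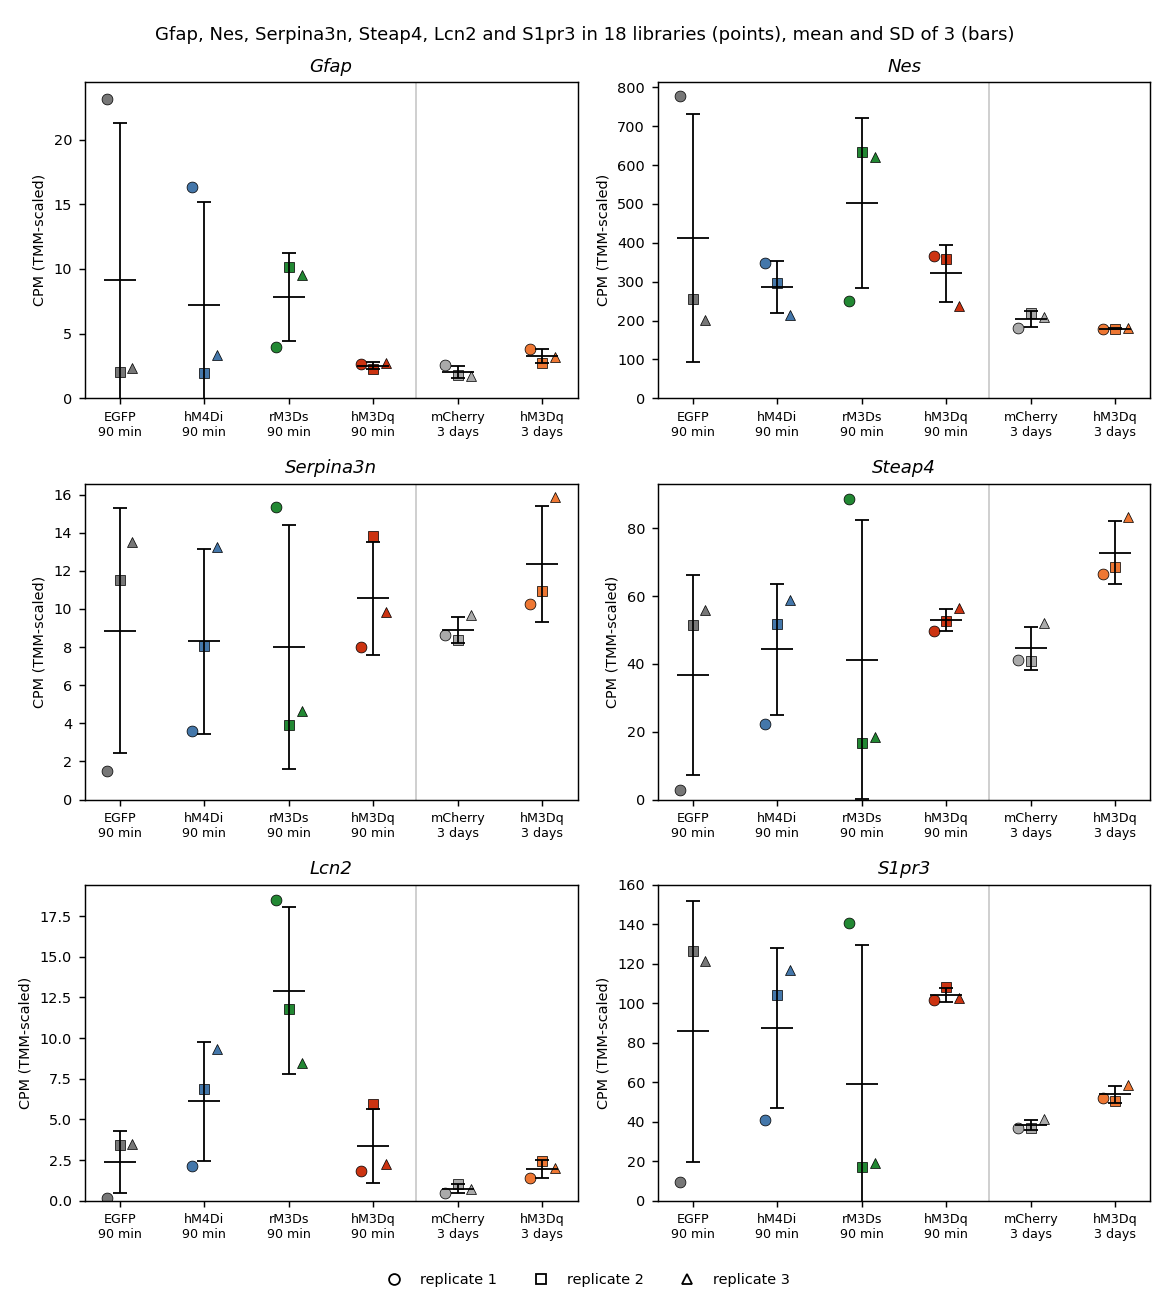
Levels in CPM (vertical axes, from 0) of Gfap, Nes, Serpina3n, Steap4, Lcn2 and S1pr3 in the 18 libraries by group, with replicate numbers as symbols and the mean and SD of 3 libraries as bars. Gfap and Nes are highest in EGFP 1, where Serpina3n, Steap4, Lcn2 and S1pr3 are lowest, and the 2 groups at 3 days are less spread.

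The first comparison set hM3Dq against EGFP at 90 min, and 2 members of the A2 set rose. Ptx3 encodes pentraxin 3, a secreted pattern-recognition protein of the acute phase, and Cd14 encodes the co-receptor that hands bacterial lipopolysaccharide to TLR4. Of 35 members tested, 2 rose and 0 fell with hM3Dq against EGFP (edgeR's quasi-likelihood test, p-values adjusted by Benjamini-Hochberg across every gene in the fit, called below 0.05), against 0.788% of all 13584 genes called in either direction, 0.758% called higher and 0.0294% called lower. The remaining member, Slc10a6, did not pass the filter on low counts. The other 33 members did not pass the test. DESeq2 called 3 members, Ptx3, Cd14 and Lgals3, all higher, against 0.975% of all genes called higher and 0.18% called lower by that test.

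The sequence before the Ptx3 start is shown because Ptx3 had the smallest p of the set at 90 min. It runs from 250 bases before the annotated start to 20 bases after it (RefSeq promoter table, GRCm38.p6, chr3:66219637-66219906, plus strand), and capitals mark 2 overlapping matches to the NF-kB motif, 1 on each strand. The plus-strand match begins at position -1, the last base before the start, and the minus-strand match begins at position 1, the start itself.
Ptx3: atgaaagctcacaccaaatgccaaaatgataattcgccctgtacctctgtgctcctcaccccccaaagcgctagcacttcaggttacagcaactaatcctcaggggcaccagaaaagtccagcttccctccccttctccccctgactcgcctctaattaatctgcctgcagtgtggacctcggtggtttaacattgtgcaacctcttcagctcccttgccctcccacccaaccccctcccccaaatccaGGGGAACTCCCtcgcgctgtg
The match describes letters only, and the data hold no measurement of binding there.

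Ptx3 measured 146, 173 and 147 CPM in hM3Dq 1 to 3 (156 ± 15.3, SD, n = 3) and 19.3, 45.9 and 47.6 CPM in EGFP 1 to 3 (37.6 ± 15.9, SD, n = 3). All hM3Dq libraries were above every other library of the series for this gene. The log2 fold change was 2.05 ± 0.29 (standard error), or 4.14-fold, with an adjusted p of 0.00752 by edgeR. EGFP 1 was the lowest of its group, and without it the log2 fold change was 1.73 ± 0.18 (adjusted p = 0.000682, edgeR). When only the 2 groups were fitted, the same change of 2.05 had an adjusted p of 0.0784 by edgeR and was not called.

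Cd14 measured 28.4, 27.9 and 30.6 CPM with hM3Dq and 15.8, 11.2 and 11.2 CPM with EGFP. The groups did not overlap, and EGFP 1 was the highest of its group. The log2 fold change was 1.18 ± 0.21, or 2.27-fold (adjusted p = 0.0267, edgeR), and without EGFP 1 it was 1.37 ± 0.22 (adjusted p = 0.0186, edgeR). In that fit 0.705% of all genes were called higher and 0.0436% lower. Cd14 is also made by microglia. The summed level of the 11 microglial markers was 3.53, 3.14 and 4.01 CPM with hM3Dq and 11.4, 5.25 and 3.56 CPM with EGFP. Of these sums Tmem119 was 2.10, 1.45 and 2.235 CPM with hM3Dq and 8.97, 3.37 and 1.78 CPM with EGFP. C1qb and Tyrobp were at 0 in all hM3Dq libraries. The Cd14 call was lost, with the change still upward, when EGFP 2, EGFP 3 or any 1 of the hM3Dq libraries was left out. The Ptx3 call held in each of these fits.

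**Figure D3:**
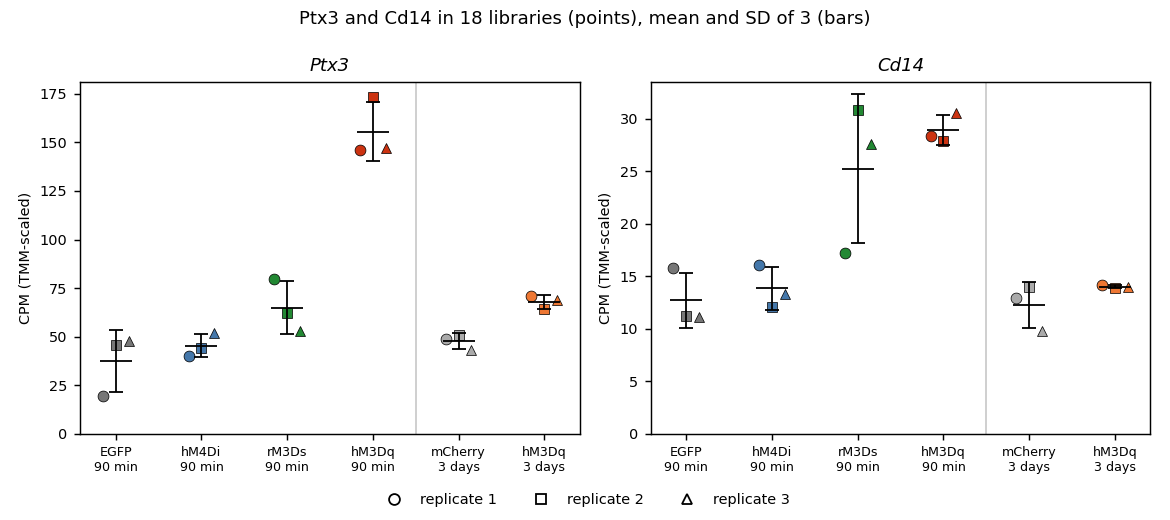
Levels of Ptx3 and Cd14 in CPM (vertical axes, from 0) in the 18 libraries by group, with replicate numbers as symbols and the mean and SD of 3 libraries as bars. Ptx3 is highest in the 3 hM3Dq libraries at 90 min (146 to 173 CPM), and for Cd14 rM3Ds 2 lies above and rM3Ds 3 just below the 3 hM3Dq libraries at that time.

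The rest of the A2 set did not pass the test with hM3Dq. Sphk1, the kinase that makes sphingosine-1-phosphate, had a log2 fold change of 0.58 ± 0.19 (adjusted p = 0.373, edgeR), with 9.15, 9.42 and 8.84 CPM against 5.24, 7.08 and 5.98 CPM in EGFP. B3gnt5, a glycosyltransferase of glycolipid synthesis, had the lowest value of the A2 genes at -1.79, with 1.55, 1.21 and 0.965 CPM against 8.35, 2.34 and 2.13 CPM. Both pairs of groups stood clear of each other, yet the EGFP libraries of B3gnt5 were themselves several-fold apart. Emp1 and Tm4sf1, both membrane proteins of the cell surface, Cd109 and S100a10 had log2 fold changes of 0.03, 0.37, -0.05 and 0.15.

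Of the 4 intermediate filament genes, 0 passed the test with hM3Dq by edgeR, 0 by DESeq2 and 0 at an unadjusted p under 0.05, and 1 of the 4 log2 fold changes was above 0. Gfap was at -1.86 ± 1.01 (adjusted p = 0.722, edgeR), and without EGFP 1 its value was 0.21 ± 0.82. Nes was at -0.36 ± 0.50, and at 0.49 ± 0.37 without EGFP 1. Both directions therefore rested on EGFP 1. Vim, which encodes vimentin, was 5847, 5322 and 6443 CPM against 4971, 4741 and 5066 CPM, a log2 fold change of 0.25 ± 0.13 (adjusted p = 0.702, edgeR). Synm, which encodes synemin, a partner filament of vimentin, was at -0.80 ± 0.52.

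Neither gene of STAT3 signalling passed by edgeR, by DESeq2 or at an unadjusted p under 0.05 in hM3Dq at 90 min. Stat3, the transcription factor itself, was 342, 357 and 314 CPM with hM3Dq and 204, 315 and 301 CPM with EGFP, with a log2 fold change of 0.30 ± 0.16 (adjusted p = 0.709, edgeR). Socs3, its induced inhibitor, was 28.5, 25.2 and 24.6 CPM against 15.8, 23.2 and 24.0 CPM, a log2 fold change of 0.31 ± 0.22 (adjusted p = 0.833, edgeR). The groups did not overlap for Socs3, and for Stat3 only EGFP 2 reached the lowest hM3Dq library.

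Among the 10 pan-reactive genes 0 passed with hM3Dq by edgeR or DESeq2 (2 higher and 0 lower at an unadjusted p under 0.05), 8 log2 fold changes were above 0 and the median was 0.27. Lcn2, the iron-chaperone lipocalin 2, was 1.86, 5.98 and 2.23 CPM against 0.189, 3.43 and 3.51 CPM, a log2 fold change of 0.51 ± 0.83 that was -0.05 ± 0.65 without EGFP 1. Serpina3n, a secreted protease inhibitor, was at 0.26 ± 0.75, and at -0.25 ± 0.60 without EGFP 1. Steap4, a metalloreductase of iron and copper uptake, measured 49.8, 52.7 and 56.4 CPM against 2.88, 51.4 and 56.0 CPM. For these 3 genes hM3Dq lay near EGFP 2 and 3, and EGFP 1 was far below. Timp1, an inhibitor of matrix metalloproteases, and Cd44, the hyaluronan receptor, had non-overlapping groups and log2 fold changes of 0.42 ± 0.19 and 0.41 ± 0.18 (adjusted p = 0.615 and 0.621, edgeR).

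The 5 genes of the A1 set had a median of 0.06 and 0 calls by edgeR or DESeq2 (1 lower at an unadjusted p under 0.05), between Srgn, a proteoglycan core protein, at -1.15 ± 0.47 and Amigo2, an adhesion protein, at 0.33 ± 0.30. Srgn was 6.14 CPM in EGFP 1 and 1.54 and 2.01 CPM in the other EGFP libraries. Lgals3, which encodes the sugar-binding protein galectin-3, had the third-smallest p among the members, with 72.9, 93.5 and 80.9 CPM against 53.4, 52.8 and 47.1 CPM. Its groups did not overlap, and its log2 fold change was 0.69 ± 0.17 (adjusted p = 0.144, edgeR, and 0.0166 by DESeq2). The other 5 calcium-binding and galectin genes lay between -0.21 (S100a6) and 0.33 (Capg, an actin-capping protein). Of the adhesion molecules, Vcam1 was 1191, 1385 and 1309 CPM against 289, 1018 and 1073 CPM, and Icam1 had a log2 fold change of -0.38 ± 0.47.

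Counted over the set, the log2 fold change with hM3Dq was positive in 23 of 35 members, against 49% of all genes, and the median was 0.26 against 0.00 over all genes. In 11 members (31.4%) every hM3Dq library was above every EGFP library, against 8.27% of all genes. These were Capg, Cd14, Cd44, Fbln5, Lgals3, Ptx3, Socs3, Sphk1, Timp1, Vcam1 and Vim. In 3 members (8.57%), Aspg, B3gnt5 and Ggta1, every hM3Dq library was below, against 6.47% of all genes. Aspg, an asparaginase, was under 1 CPM in every library. At an unadjusted p under 0.05 there were 7 members higher and 2 lower, against 4.34% and 3.59% of all genes.

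The second comparison set the Gs receptor against the same EGFP libraries, so its values share their control with those of hM3Dq. No member passed the test of 35, against 0.0147% of all genes called by edgeR. At an unadjusted p under 0.05 there were 5 members higher and 1 lower (3% and 1.24% of all genes), and DESeq2 called 1 member, Cd14, higher, against 0.28% of all genes called higher and 0.025% called lower by that test. Cd14 was 17.2, 30.9 and 27.6 CPM in rM3Ds 1 to 3, a log2 fold change of 0.99 ± 0.21 (adjusted p = 0.364 by edgeR and 0.00872 by DESeq2). rM3Ds 2 reached the hM3Dq range, rM3Ds 3 was just below it, and rM3Ds 1 was close to EGFP 1. Without rM3Ds 1 the value was 1.21 ± 0.17 (adjusted p = 0.00893, edgeR, against 0.629% of all genes called higher and 0.202% lower), and without EGFP 1, rM3Ds 2 and rM3Ds 3 it was 0.62 ± 0.18 (adjusted p = 1, edgeR).

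The next smallest p values with rM3Ds belonged to Chi3l1, Ggta1 and Lcn2, and their groups did not overlap with EGFP. Chi3l1, a secreted chitinase-like protein used as a marker of reactive astrocytes, was 13.8, 23.5 and 21.8 CPM against 1.51, 7.37 and 7.70 CPM, a log2 fold change of 1.84 ± 0.55 (adjusted p = 0.76, edgeR). Ggta1, which makes the alpha-gal sugar epitope, was 35.5, 52.2 and 52.7 CPM against 35.2, 31.0 and 32.7 CPM, a log2 fold change of 0.50 ± 0.16 (adjusted p = 0.859, edgeR). Lcn2 was 18.5, 11.8 and 8.45 CPM, its highest in any group, with a log2 fold change of 2.46 ± 0.84 (adjusted p = 1, edgeR). Lcn2 and Chi3l1 lay above every EGFP library in all 3 rM3Ds libraries, whereas Steap4 and S1pr3 did so in rM3Ds 1 alone. Ptx3 was 79.6, 62.2 and 53.1 CPM with a log2 fold change of 0.79 ± 0.28 (adjusted p = 1, edgeR).

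Gfap, Vim and Nes had log2 fold changes of -0.23 ± 0.95, 0.10 ± 0.13 and 0.28 ± 0.50 with rM3Ds, and Stat3, Socs3 and Serpina3n of 0.16 ± 0.16, 0.49 ± 0.22 and -0.14 ± 0.75. Without EGFP 1, rM3Ds 2 and rM3Ds 3, which leaves a single rM3Ds library whose spread is taken from the other groups, Gfap, Serpina3n, Stat3 and Socs3 changed sign, to 0.84, 0.29, -0.02 and -0.13. The log2 fold change was positive in 24 of 35 members (45.5% of all genes), with a median of 0.13 against -0.02 over all genes. In 6 members (17.1%), Cd14, Chi3l1, Ggta1, Lcn2, Ptx3 and Timp1, every rM3Ds library was above every EGFP library, against 3.88% of all genes. In 0 members every library was below, against 3.6% of all genes.

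With the Gi receptor hM4Di 0 of 35 members passed the edgeR test, against 0% of all genes called. At an unadjusted p under 0.05 there were 2 members higher and 0 lower (2.32% and 3.17% of all genes), and DESeq2 called 1, Capg, higher, against 0.09% of all genes called higher and 0.065% called lower by that test. Capg caps the ends of actin filaments and was 24.4, 32.5 and 24.2 CPM with hM4Di against 15.0, 17.4 and 18.6 CPM with EGFP. Its log2 fold change was 0.67 ± 0.13 (adjusted p = 0.774 by edgeR and 0.0134 by DESeq2), and its groups did not overlap. Timp1 was 20.7, 37.1 and 26.4 CPM against 17.6, 20.4 and 21.6 CPM, a log2 fold change of 0.50 ± 0.18. Srgn and Cd109, a surface protein that binds TGF-beta, followed at -0.96 ± 0.47 and -0.58 ± 0.31.

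Ptx3 and Cd14 had log2 fold changes of 0.27 ± 0.28 and 0.12 ± 0.21 with hM4Di, with libraries of 40.2, 44.3 and 51.8 CPM and 16.1, 12.1 and 13.3 CPM inside or near the EGFP range. Lcn2 was 2.13, 6.87 and 9.31 CPM, a log2 fold change of 1.37 ± 0.82. Gfap, Nes and Serpina3n were at -0.35 ± 0.95, -0.53 ± 0.50 and -0.09 ± 0.75, and Vim, Stat3 and Socs3 at 0.17 ± 0.13, 0.09 ± 0.16 and 0.35 ± 0.22. In Gfap, Lcn2 and Serpina3n, whose errors are large, hM4Di 1 and EGFP 1 differ most from their replicates. Without the 3 libraries that stand apart Gfap, Nes, Ptx3 and Stat3 changed sign, to 1.73, 0.31, -0.06 and -0.10. Of those libraries only EGFP 1 belongs to the groups compared here, and hM4Di 1 stayed in the fit. Leaving out 1 library at a time gave -1.81 to 1.75 for Gfap. Positive values were seen in 21 of 35 members (47.9% of all genes), the median was 0.04 against -0.01 of all genes, and non-overlapping groups were seen for 1 member higher (Capg, against 4.02% of all genes) and 1 lower (Aspg, against 4.45%).

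Set directly against each other, hM3Dq and hM4Di differed in 2 of 35 members, again Ptx3 and Cd14, both higher with hM3Dq, against 0.802% of all genes called (0.751% higher and 0.0515% lower). Ptx3 had a log2 difference of 1.78 ± 0.29, or 3.43-fold (adjusted p = 0.0175, edgeR), and Cd14 of 1.06 ± 0.21, or 2.09-fold (adjusted p = 0.0448, edgeR). Neither call held when any 1 of the hM3Dq or hM4Di libraries was left out. The next 2 by p were Lgals3 at 0.44 ± 0.17 and Capg at -0.34 ± 0.13, neither of which passed. Gfap was at -1.51 ± 1.00, Lcn2 at -0.86 ± 0.81, Nes at 0.16 ± 0.50, Serpina3n at 0.35 ± 0.75, Vim at 0.08 ± 0.13, Stat3 at 0.21 ± 0.16 and Socs3 at -0.03 ± 0.22. The log2 difference was positive in 20 of 35 members (47.2% of all genes), with a median of 0.12 against -0.01. Every hM3Dq library was above every hM4Di library in 8 members (22.9%, against 11.4% of all genes) and below in 2 (5.71%, against 8.76%).

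Between hM3Dq and rM3Ds 0 of 35 members passed the edgeR test, against 0.67% of all genes called (0.567% higher and 0.103% lower), with 2 higher and 4 lower at an unadjusted p under 0.05 (6.76% and 7.48% of all genes). Ptx3 was the closest on the hM3Dq side, with a log2 difference of 1.26 ± 0.28 (adjusted p = 0.0841 by edgeR and 0.00084 by DESeq2), and the libraries of the 2 groups were well apart. Ggta1 was the closest on the rM3Ds side at -0.73 ± 0.16 (adjusted p = 0.0711 by edgeR and 0.0035 by DESeq2). Cd14 differed by 0.20 ± 0.21. When only the 2 groups were fitted, edgeR called Ptx3 higher (adjusted p = 0.0152) and Chi3l1 lower (adjusted p = 0.0459), against 0.9% of all genes called higher and 0.153% lower in that fit. Without rM3Ds 1 edgeR called Ptx3 higher and Ggta1 lower (adjusted p = 0.0382 and 0.00633), against 2.01% and 2.26% of all genes. DESeq2 called Ptx3 higher and Ggta1 lower as well, against 1.26% and 1.09% of all genes.

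Lcn2 and Chi3l1 were lower with hM3Dq than with rM3Ds by log2 differences of -1.95 ± 0.82 and -1.38 ± 0.54, and their groups did not overlap (adjusted p = 0.322 and 0.296, edgeR). Lgals3 was at 0.49 ± 0.17. Gfap, Nes and Serpina3n were at -1.63 ± 1.00, -0.65 ± 0.50 and 0.40 ± 0.75, and Vim, Stat3 and Socs3 at 0.16 ± 0.13, 0.14 ± 0.16 and -0.18 ± 0.22. Without the 3 libraries that stand apart Nes, Serpina3n and Socs3 changed sign, to 0.36, -0.55 and 0.26. Positive differences were seen in 18 of 35 members (51.5% of all genes), with a median of 0.05 against 0.01. Every hM3Dq library was above every rM3Ds library in 6 members (17.1%, against 11.4% of all genes) and below in 5 (14.3%, against 10.4%).

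At 3 days hM3Dq was set against mCherry, with DCZ withdrawn. In the fit of all 6 libraries 0 of 33 members passed edgeR's test, against 0% of all 12807 genes called. Slc10a6, B3gnt5 and Icam1 did not pass the filter on low counts at this time. By value the set leaned upward: 27 of 33 log2 fold changes were above 0 (48.8% of all genes), the median was 0.30 against -0.01 of all genes, and at an unadjusted p under 0.05 there were 13 members higher and 0 lower, against 4.55% and 7.47% of all genes. DESeq2 called 5 members, Steap4, S1pr3, Ptx3, Chi3l1 and Stat3, all higher (0.421% of all genes called higher and 0.433% lower). In 16 members (48.5%) every hM3Dq library was above every mCherry library, against 12% of all genes, and in 1 (3.03%), Nes, every library was below, against 12.9% of all genes.

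Steap4 had the smallest p of the set at 3 days, and the 250 bases before its start are shown for that reason (RefSeq promoter table, GRCm38.p6, chr5:7960222-7960471, plus strand). Capitals mark 2 matches to the NF-kB motif at the left and 1 match to the STAT motif TTCNNNGAA further on.
Steap4: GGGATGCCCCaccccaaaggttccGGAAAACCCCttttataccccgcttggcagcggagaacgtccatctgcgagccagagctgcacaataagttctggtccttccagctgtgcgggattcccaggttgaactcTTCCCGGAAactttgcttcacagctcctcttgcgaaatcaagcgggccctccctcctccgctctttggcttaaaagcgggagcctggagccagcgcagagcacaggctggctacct
As for Ptx3, the letters are a description and no binding was measured.

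Steap4 measured 66.4, 68.7 and 83.5 CPM in hM3Dq 1 to 3 and 41.2, 40.7 and 52.0 CPM in mCherry 1 to 3, a log2 fold change of 0.72 ± 0.13 (adjusted p = 0.205 by edgeR and 0.00148 by DESeq2). S1pr3 measured 52.2, 50.6 and 58.8 CPM against 37.1, 37.0 and 41.3 CPM, a log2 fold change of 0.50 ± 0.10 (adjusted p = 0.214 and 0.00986 by the same tests, edgeR and DESeq2). Ptx3, called higher with hM3Dq at 90 min, measured 71.0, 64.0 and 69.0 CPM against 49.0, 50.8 and 43.0 CPM, a log2 fold change of 0.52 ± 0.11 (adjusted p = 0.228, edgeR, and 0.00952, DESeq2). None of these groups overlapped. The SD was larger with hM3Dq than with mCherry for Steap4 (9.27 against 6.38 CPM) and S1pr3 (4.34 against 2.47 CPM), and smaller for Ptx3 (3.63 against 4.05 CPM). In Steap4 and S1pr3 mCherry 3 was the control library nearest to the hM3Dq libraries.

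Chi3l1 was 8.46, 7.74 and 9.47 CPM against 4.77, 5.96 and 4.46 CPM, a log2 fold change of 0.77 ± 0.17 (adjusted p = 0.228, edgeR, and 0.0345, DESeq2). Stat3 was 224, 207 and 247 CPM against 169, 167 and 186 CPM, or 0.39 ± 0.09 (adjusted p = 0.24, edgeR, and 0.0479, DESeq2). Lcn2 had the highest log2 fold change of the set, 1.39 ± 0.34 (adjusted p = 0.243, edgeR), from low levels of 1.39, 2.46 and 2.00 CPM against 0.477, 1.01 and 0.753 CPM. The highest mCherry library of Lcn2 was below the lowest hM3Dq library. Gfap was 3.85, 2.75 and 3.19 CPM against 2.60, 1.79 and 1.74 CPM, 0.68 ± 0.23, and Serpina3n 10.3, 11.0 and 15.9 CPM against 8.64, 8.35 and 9.67 CPM, 0.49 ± 0.18 (adjusted p = 0.328 and 0.369, edgeR).

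The filaments other than Gfap did not share this lean. Vim was 3136, 3315 and 3385 CPM against 3325, 3386 and 2670 CPM, a log2 fold change of 0.07 ± 0.12. Nes was 179, 179 and 180.1 CPM against 182, 220.2 and 209.8 CPM, -0.18 ± 0.09, and Synm was at -0.25 ± 0.20. Socs3 was 27.7, 27.6 and 34.3 CPM against 26.9, 26.4 and 16.1 CPM, 0.37 ± 0.21. Its difference lay mostly in mCherry 3, and without that library it was 0.16 ± 0.09. Cd14, the second gene called at 90 min, was 14.2, 13.9 and 14.0 CPM against 12.9, 14.0 and 9.79 CPM, a log2 fold change of 0.20 ± 0.16 (adjusted p = 0.571, edgeR).

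By role, 9 of the 10 pan-reactive genes had a log2 fold change above 0 at 3 days, with a median of 0.49, and Cp, the copper-carrying ferroxidase ceruloplasmin, was at -0.08. The A1 genes had a median of 0.25, from Srgn at -0.60 ± 0.31 to Fkbp5 at 0.37 ± 0.11. Fkbp5, a co-chaperone of the glucocorticoid receptor, was 64.6, 64.0 and 78.9 CPM against 49.4, 57.4 and 55.1 CPM, and Fbln5, an elastic-fibre protein, 245, 244 and 264 CPM against 187, 196 and 221 CPM. Both had groups that did not overlap. The 7 tested A2 genes had a median of 0.17 and the 6 calcium-binding and galectin genes a median of 0.27, with 6 of 6 above 0. The latter lean rested partly on mCherry 3, whose S100a6, Lgals1 and Lgals3 were 112, 216 and 28.8 CPM, below every other library at 3 days.

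Without mCherry 3, which stands apart from all other libraries at this time, edgeR called 13 of 34 members, all higher, against 4.15% of all genes called higher and 5.58% called lower. With it the count was 0. The 13 were Steap4, S1pr3, Ptx3, Fbln5, Stat3, Vcam1, Cd109, Chi3l1, Cd44, Lcn2, Lgals1, Fkbp5 and Ggta1. Steap4 was then at 0.82 ± 0.09 (adjusted p = 0.00043, edgeR), S1pr3 at 0.53 ± 0.07 (adjusted p = 0.000784, edgeR) and Ptx3 at 0.44 ± 0.06 (adjusted p = 0.00107, edgeR). The values of these 3 genes are near those of all 6 libraries, and the standard errors are smaller. This did not hold for every called member. In Cd109 and Cd44 mCherry 3 was above every hM3Dq library. Cd109 was 193.7, 193.2 and 193.4 CPM with hM3Dq and 158.8, 168.8 and 253.3 CPM with mCherry. Cd44 was 474, 475 and 513 CPM against 407, 420.5 and 561 CPM, and its log2 fold change from all 6 libraries was 0.09. Lcn2 was at 1.38 ± 0.38 (adjusted p = 0.031, edgeR), Stat3 at 0.42 ± 0.07 (adjusted p = 0.00174, edgeR) and Vcam1 at 0.31 ± 0.06 (adjusted p = 0.00618, edgeR). Gfap, at 0.56 ± 0.24, and Serpina3n, at 0.53 ± 0.17, did not pass (adjusted p = 0.154 and 0.0746, edgeR).

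**Figure D4:**
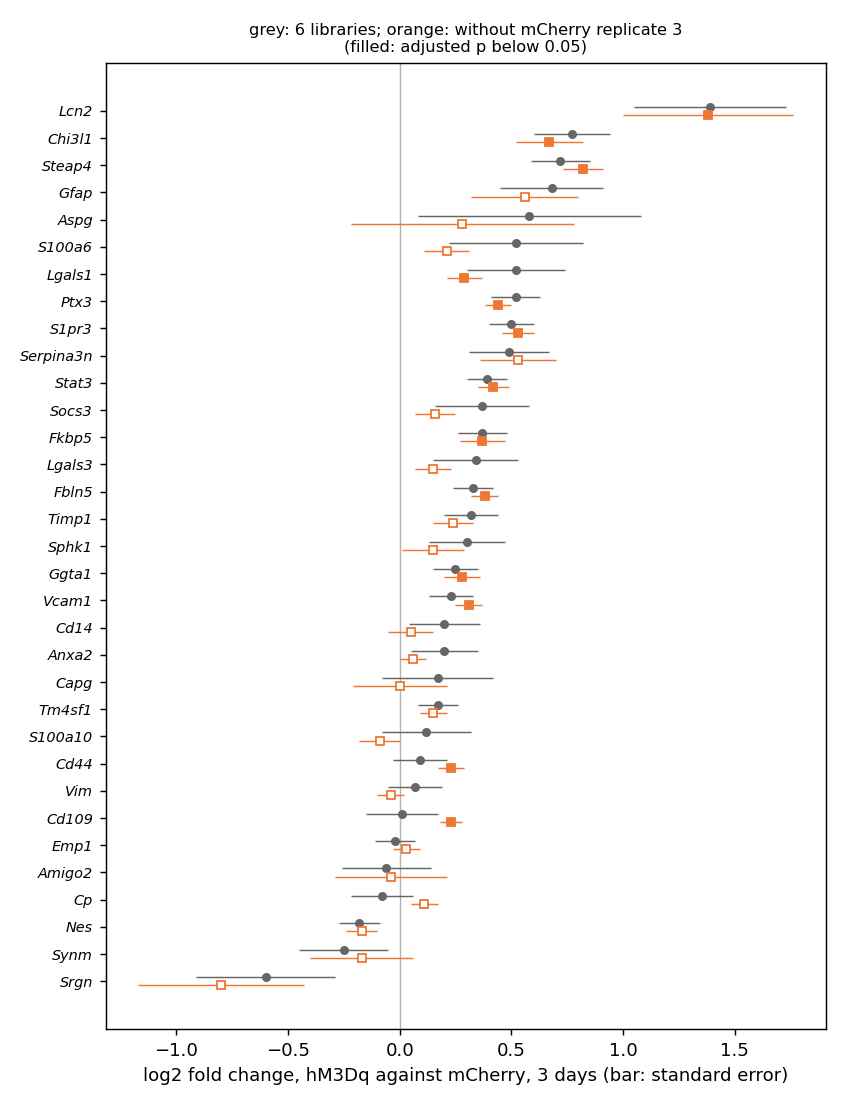
Log2 fold change of 33 members, hM3Dq against mCherry at 3 days (horizontal axis, bars are standard errors), from all 6 libraries (grey circles) and without mCherry 3 (orange squares, filled where the adjusted p is below 0.05). All 13 filled squares lie right of 0, and for Steap4, S1pr3 and Ptx3 both fits give nearly the same value.

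Other markers moved beside these values. The summed astrocyte markers at 3 days were 889, 852 and 885 CPM with hM3Dq and 806, 764 and 779.6 CPM with mCherry, those of fibroblasts and meninges 2133, 2168 and 2541 CPM and 2135, 2192 and 1859 CPM, and those of microglia 8.41, 8.32 and 9.69 CPM and 7.85, 7.34 and 4.75 CPM. Of the 11 microglial markers, Cx3cr1, P2ry12, Itgam, C1qa, C1qb and Tyrobp were at 0 in all 6 libraries. Tmem119 made up most of the microglial sum, at 7.85, 7.27 and 9.20 CPM with hM3Dq and 7.425, 6.62 and 4.34 CPM with mCherry. The part of these differences in the values of the set was not tested.

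Across the 2 times the hM3Dq effect on Ptx3 and Cd14 was smaller at 3 days than at 90 min by value, and the test of the difference itself did not pass in the fit of all 12 libraries. The difference (3 days minus 90 min, each against its own control) was -1.52 ± 0.36 on the log2 scale for Ptx3 (adjusted p = 0.133, edgeR) and -0.98 ± 0.23 for Cd14 (adjusted p = 0.128, edgeR). No member of 35 passed, against 0.396% of all genes called (0.0149% higher and 0.381% lower), and at an unadjusted p under 0.05 there were 4 members higher and 2 lower (3.69% and 6.04% of all genes). DESeq2 called Ptx3 (adjusted p = 0.00303) and Cd14 (adjusted p = 0.0122), both lower at 3 days, against 0.166% of all genes called higher and 0.865% called lower by that test.

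Without EGFP 1 edgeR called 3 members, against 0.229% of all genes called higher and 1.03% called lower. Ptx3 was then at -1.20 ± 0.15 (adjusted p = 0.00124, edgeR), Cd14 at -1.16 ± 0.20 (adjusted p = 0.01, edgeR) and S1pr3, in the other direction, at 0.75 ± 0.12 (adjusted p = 0.00859, edgeR). For S1pr3 the hM3Dq libraries at 90 min lay below EGFP 2 and 3, and at 3 days they lay above mCherry. Without mCherry 3 edgeR called 1 member, Cd14, at -1.13 ± 0.19 (adjusted p = 0.0287, edgeR, against 0.0369% of all genes called higher and 0.538% called lower).

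Other members had large differences between times with errors to match. Gfap was at 2.55 ± 1.07 (adjusted p = 0.482, edgeR) and at 0.47 ± 0.33 without EGFP 1. B3gnt5 was at 2.38 ± 0.96 (adjusted p = 0.467, edgeR), from 3-day levels of 0.154, 0.176 and 0.271 CPM and 0.106, 0.119 and 0.174 CPM that are at or near the floor. Ggta1 was at 0.49 ± 0.13 (adjusted p = 0.202, edgeR). Lcn2, Serpina3n and Nes were at 0.88 ± 1.08, 0.23 ± 0.76 and 0.19 ± 0.56, and Vim, Stat3 and Socs3 at -0.17 ± 0.17, 0.09 ± 0.20 and 0.06 ± 0.30. Nes changed sign without EGFP 1, to -0.66. The difference was positive in 21 of 35 members (52.1% of all genes), with a median of 0.09 against 0.02 over all genes.

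**Figure D5:**
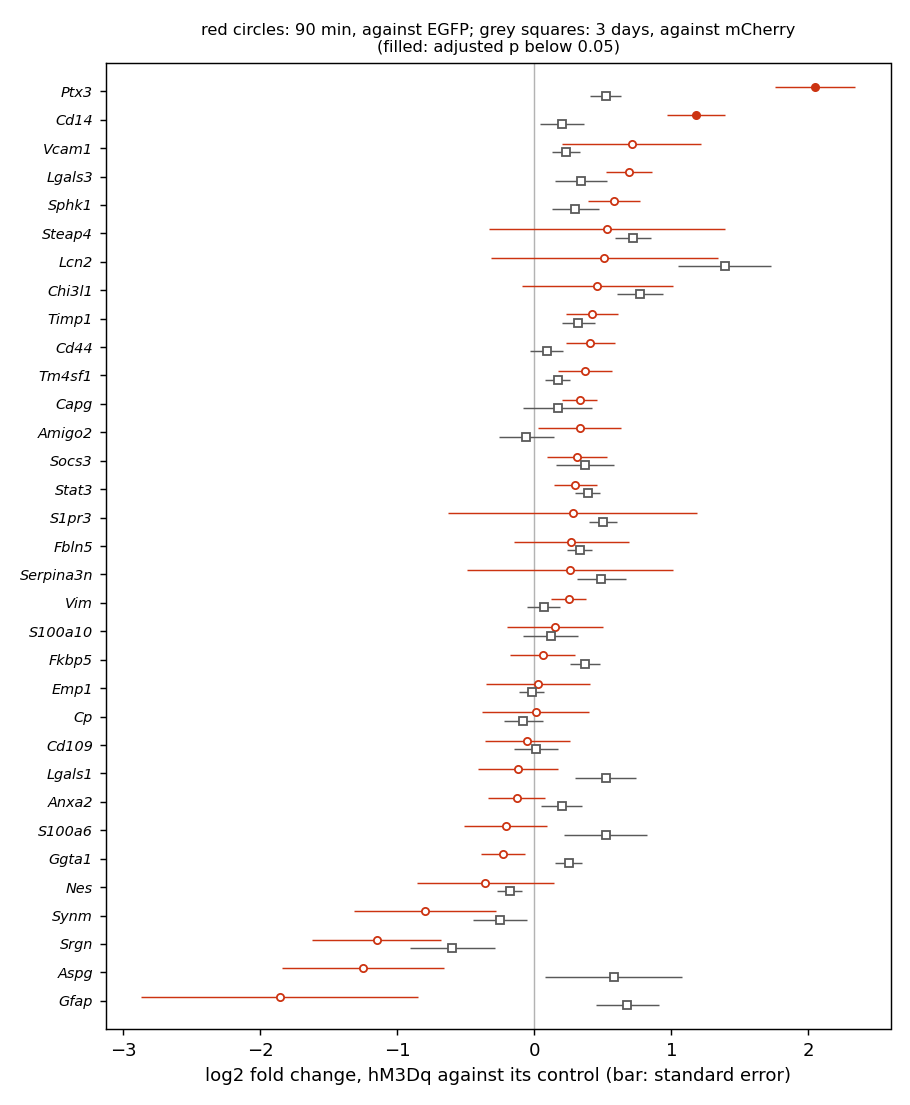
Log2 fold change of hM3Dq against its control for 33 members (horizontal axis, bars are standard errors), at 90 min against EGFP (red circles) and at 3 days against mCherry (grey squares), ordered by the 90-min value and filled where the adjusted p is below 0.05. Ptx3 and Cd14 are filled at 90 min and lie nearer 0 at 3 days, and Gfap has the lowest 90-min value with a long error bar.

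Some members differed more between the 2 times than between plasmids, in receptor and control cultures alike. These differences mix time, medium change, control plasmid and anything that differed in making the 2 separately deposited count tables, and were not tested. Fkbp5 was 18.6, 9.08 and 9.95 CPM in EGFP and 14.0, 13.3 and 12.1 CPM in hM3Dq at 90 min, and 49.4 to 78.9 CPM in the 6 libraries at 3 days. Fbln5 was 68.5, 77.1 and 78.4 CPM and 87.2, 81.5 and 101 CPM in the same groups at 90 min, and 187 to 264 CPM at 3 days. Icam1, the adhesion ligand of leukocyte integrins, went the other way, from 5.10, 3.83 and 2.24 CPM and 2.97, 2.17 and 3.45 CPM to 0.205, 0.703 and 0.325 CPM with hM3Dq and 0.530, 0.298 and 0.348 CPM with mCherry. Slc10a6, a transporter of sulphated steroids, was at 0.421 CPM or less at 90 min and had 0 counts in all 6 libraries at 3 days, where the floor was 0.152 to 0.181 CPM.

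The order of the groups by mean level differed from member to member. For Ptx3 it ran from hM3Dq at 90 min (156 ± 15.3 CPM, SD, n = 3), through hM3Dq at 3 days (68.0 ± 3.63), rM3Ds (65.0 ± 13.5), mCherry (47.6 ± 4.05) and hM4Di (45.4 ± 5.88), to EGFP (37.6 ± 15.9). The first step is larger than the spread, rM3Ds and mCherry did not overlap either, and the other neighbours in this order did. For Cd14 the means were 28.9 ± 1.43 CPM (hM3Dq, 90 min), 25.2 ± 7.11 (rM3Ds), 14.0 ± 0.138 (hM3Dq, 3 days), 13.8 ± 2.06 (hM4Di), 12.7 ± 2.63 (EGFP) and 12.2 ± 2.19 (mCherry), and the first 2 overlap, as do the last 4.

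Reactive-set genes that are no member give the surroundings of the list. Of 12 such genes 11 were tested. With hM3Dq at 90 min 2 rose and 0 fell, against 0.758% of all genes called higher and 0.0294% called lower by edgeR. They were Ptgs2, the prostaglandin-forming cyclooxygenase-2, at a log2 fold change of 3.96 ± 0.27 (adjusted p = 4.31e-05, edgeR), and Clcf1, a cytokine of the CNTF family that signals through STAT3, at 1.82 ± 0.11 (adjusted p = 1.8e-05, edgeR). Both belong to the A2 set, like Ptx3 and Cd14. They were the 2 of these 11 genes that were also higher than with rM3Ds (2.56 and 1.55) and with hM4Di (3.56 and 1.89), and that differed between the times (-4.02 and -2.43). Over all genes edgeR called 0.567% and 0.751% higher than with rM3Ds and hM4Di, and 0.381% lower in the difference between times. With rM3Ds 0 of the 11 passed by edgeR (2 higher and 0 lower at an unadjusted p under 0.05, against 3% and 1.24% of all genes). DESeq2 called Ptgs2 higher, against 0.28% of all genes called higher and 0.025% lower. With hM4Di 0 passed by edgeR (4 higher and 0 lower at an unadjusted p under 0.05, against 2.32% and 3.17% of all genes). DESeq2 called 2 higher, Psmb8, a subunit of the immunoproteasome, and Iigp1, an interferon-induced GTPase. By that test 0.09% of all genes were called higher and 0.065% lower. Iigp1 was 147, 51.7 and 54.7 CPM in hM4Di 1 to 3 and 26.7 to 41.9 CPM with EGFP, so hM4Di 1 carried much of its difference. With hM3Dq at 3 days 0 passed by edgeR (3 higher and 1 lower at an unadjusted p under 0.05, against 4.55% and 7.47% of all genes). DESeq2 called Serping1, the inhibitor of complement C1, higher and Clcf1 lower, against 0.421% and 0.433% of all genes.

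The 16 genes of the upstream inputs, among them Il6st, Lifr and Il6ra (cytokine receptors), Jak1 and Jak2 (their kinases), Il1r1, Tnfrsf1a and Tlr4 (inflammatory receptors) and Rela (an NF-kB subunit), were tested in full. None of the 16 passed in any of the 7 comparisons by edgeR, where 0% to 0.802% of all genes were called. With hM3Dq at 90 min 3 were higher and 0 lower at an unadjusted p under 0.05, against 4.34% and 3.59% of all genes. DESeq2 called 2 higher, Il6ra and Tgfbr1, a receptor of TGF-beta, against 0.975% of all genes called higher and 0.18% lower. With hM3Dq at 90 min their median was -0.01, between Cntfr at -0.36 and Il6ra at 0.81 ± 0.21 (adjusted p = 0.161, edgeR). At 3 days their median was -0.04, and the gene with the smallest p was Myd88, the adaptor of the interleukin-1 and Toll-like receptors, at 0.34 ± 0.10 (adjusted p = 0.279, edgeR). For hM3Dq against hM4Di DESeq2 called 2 of the 16 higher and 0 lower, against 1.6% and 0.35% of all genes. For the difference between times it called 0 higher and 1 lower, against 0.166% and 0.865% of all genes.

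The promoters of 31 of the 36 members were found in the RefSeq promoter table (GRCm38.p6, 250 bases before to 50 after the start). Cd109, Cd14, Lgals1, S100a10 and Vcam1 had no entry and were not searched. The NF-kB motif, searched on both strands, matched in 6 members, Chi3l1, Ptx3, Sphk1, Steap4, Tm4sf1 and Vim, and in 5.14% of 27025 genes. The STAT motif TTCNNNGAA matched in 6 members, Emp1, Gfap, Icam1, Socs3, Sphk1 and Steap4, and in 9.55% of genes. The AP-1 motif TGANTCA matched in 4 members, Anxa2, Cp, Emp1 and Sphk1, and in 8.97% of genes. The CRE motif TGACGTCA and the serum response element matched in 0 members, and in 2.03% and 1.81% of genes. Steap4 and Sphk1 were the members with both an NF-kB and a STAT match in these windows.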

How the data were processed

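Gene expression was measured by poly-A RNA sequencing in 18 libraries. The authors deposited 1 table per time, with estimated counts for each gene that carry no normalisation. Salmon 1.8.0, fastp 0.23.4 and the genome build mm39 are listed, without a role, in the submitters' processing notes. How transcripts were summed to genes, and whether counting used strand, is not given in the sources used here, so near-identical copies and overlapping or antisense genes are uncertain. Of the deposited values 55.9% (90 min) and 30.5% (3 days) were not whole numbers.

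Counts were rounded to whole numbers. Symbols came from the reference table by Entrez identifier (21978 matched). The test was edgeR 4.0.16 (R 4.3.3): quasi-likelihood with robust dispersion, TMM and the default filter on low counts, over all genes, with a call at a Benjamini-Hochberg adjusted p below 0.05. The 12 libraries at 90 min were fitted together, the 6 at 3 days on their own, and the difference between times as an interaction over 12 libraries. Levels are CPM on TMM-scaled totals over all 18 libraries. Fits were tested on simulated counts with 200 changed genes. Of 2-fold changes, 55% to 65% were recovered in the comparisons at 90 min, 92% at 3 days and 46% in the difference between times. For 4-fold changes these values were 76% to 84%, 98% and 84%. Alternatives were DESeq2 1.42.0, its size factors, no filter, a replicate block, the 2 groups alone, each library left out in turn, and the 3 libraries that stand apart left out. Named in each comparison were the called members, Gfap, Vim, Nes, Lcn2, Serpina3n, Stat3, Socs3 and the 4 smallest p. Members named beyond these were chosen after their values were seen. The members, lists, tests and alternatives were chosen with earlier results of these data known.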

Additional observations from a re-analysis of the deposited data

How the results depend on the processing

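Counts of members called moved as follows, and the cause was not tested. For hM3Dq against EGFP, 2 members became 1 with the replicate block, 1 with the 2 groups alone and 3 with DESeq2 (Lgals3 added), and leaving out 1 library gave 1 to 2. For hM3Dq against hM4Di, 2 became 1 with DESeq2 size factors and 0 with the block, and leaving out 1 library gave 0 to 0. A main count of 0 became 1 with DESeq2 for rM3Ds and 1 for hM4Di, 5 at 3 days, 2 for the difference between times and 2 for hM3Dq against rM3Ds. It also became 2 for the last with the 2 groups alone, and 3 for the difference between times without EGFP 1. Leaving out 1 library gave 0 to 1 for rM3Ds, 0 to 0 for hM4Di, 0 to 13 at 3 days (13 without mCherry 3), 0 to 3 for the difference and 0 to 2 for hM3Dq against rM3Ds (2 without rM3Ds 1).

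Counts over all genes with DESeq2 were 231 for hM3Dq (107 by edgeR), 61 for rM3Ds (2), 31 for hM4Di (0), 140 at 3 days (0), 199 for the difference (53), 468 for hM3Dq against rM3Ds (91) and 390 against hM4Di (109). With the block they were 66, 4, 53 and 61 for hM3Dq, rM3Ds, hM3Dq against rM3Ds and hM3Dq against hM4Di. With the 2 groups alone they were 0 for rM3Ds and 138 for hM3Dq against rM3Ds, without the filter 1 at 3 days, and without the 3 libraries that stand apart 0 for rM3Ds, 170 for the difference, 25 for hM3Dq against rM3Ds and 300 against hM4Di. Leaving out 1 library in turn gave 50 to 103, 2 to 115, 0 to 0, 0 to 1257, 28 to 170, 28 to 590 and 38 to 106 in the order hM3Dq, rM3Ds, hM4Di, 3 days, difference, hM3Dq against rM3Ds and hM3Dq against hM4Di.

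Of 81 member values, 53 kept their sign under every alternative run and 28, none of them called in the main fit, did not. Without the 3 libraries that stand apart the reversed values were, for hM3Dq against EGFP, Gfap 0.21, Nes 0.48, Lcn2 -0.06 and Serpina3n -0.26. For rM3Ds they were Gfap 0.84, Serpina3n 0.29, Stat3 -0.02 and Socs3 -0.13, for hM4Di Ptx3 -0.06, Gfap 1.73, Nes 0.31 and Stat3 -0.10, for hM3Dq against rM3Ds Nes 0.36, Serpina3n -0.55 and Socs3 0.26, and for the difference Nes -0.66. With the replicate block they were Gfap 0.77 and Serpina3n 0.17 for rM3Ds. Leaving out 1 library gave, for hM3Dq against EGFP, -2.33 to 0.21 (Gfap), -0.68 to 0.49 (Nes), -0.20 to 0.91 (Lcn2) and -0.25 to 0.69 (Serpina3n). For rM3Ds the ranges were -0.69 to 1.86 (Gfap), -0.05 to 1.14 (Nes) and -1.03 to 0.29 (Serpina3n). For hM4Di they were -0.01 to 0.32 (Cd14), -0.03 to 0.47 (Ptx3), -1.81 to 1.75 (Gfap), -0.86 to 0.34 (Nes), -0.60 to 0.34 (Serpina3n) and -0.07 to 0.22 (Stat3). At 3 days the range was -0.04 to 0.14 (Vim). For the difference they were -0.66 to 0.52 (Nes), -0.22 to 0.74 (Serpina3n), -0.02 to 0.26 (Stat3) and -0.15 to 0.24 (Socs3). Between receptors they were -0.02 to 0.36 (Cd14, against rM3Ds), and against hM4Di -0.01 to 0.14 (Vim), -0.01 to 0.34 (Nes), -0.01 to 0.86 (Serpina3n) and -0.24 to 0.13 (Socs3).

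Replicate numbers did not pair the libraries at 90 min, and at 3 days any pairing was weak. At 90 min deviations were correlated (r over 0.1) in 7 of 18 same-numbered pairs (median -0.0865) and in 13 of 36 other pairs (median -0.0075). At 3 days this was so in 0 of 3 and 0 of 6 pairs, with r of 0.022 to 0.041 and -0.038 to 0.002. Of the libraries, 3 of 12 at 90 min and 6 of 6 at 3 days correlated best with their own number. With the replicate block Cd14 had an adjusted p of 0.0993 for hM3Dq against EGFP and 0.139 against hM4Di, and Ptx3 of 0.052 against hM4Di (edgeR). With 3 libraries a group, 1 library can decide a call. Members near the floor (Aspg, Slc10a6, and B3gnt5 and Icam1 at 3 days) cannot show small changes at this depth.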
